A study of Mus musculus with 5 samples.

Results

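The genes described here are 10 contractile protein isoforms of heart muscle that differ by chamber or by stage of life: the myosin light chains Myl2, Myl3, Myl4 and Myl7, the myosin heavy chains Myh6 and Myh7, the sarcomeric actins Acta1 and Actc1, and the inhibitory troponins Tnni1 and Tnni3. They were chosen by name, and each had 1 probe set with its symbol alone, so that 10 of the 21789 probe sets with a single gene symbol (19938 genes) are theirs. The study set hearts with a long cold preservation against hearts without it. The I/R group (n = 3, grafts 2553, 2555 and 2557) spent 18 h at 4°C in University of Wisconsin solution ahead of transplantation, and the non-I/R group (n = 2, grafts 2554 and 2556) was transplanted at once. Donors and recipients were 8 weeks old C57BL/6 mice by the methods, every heart was placed in the abdomen of a recipient that kept its own heart, and the labels give harvest at 24 h where the text on the arrays gives day 2. Each graft had 1 Affymetrix Mouse Gene 1.0 ST array, and its values are log2 signals made by the authors with RMA. RMA corrects the background, brings the probe signals of the arrays to a common distribution and gives 1 value for a probe set. The deposited values still differed between arrays, with medians from 6.58 to 6.65. The part of the heart taken for RNA is not given in the sources used here, and neither is a batch or a scan date. Nothing in the labels describes the donors of single grafts, and the p-values therefore reflect only how these 5 samples scatter, which may be technical in part.

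A sarcomere contracts when myosin heads, each with an essential and a regulatory light chain, pull on actin filaments, and troponin I holds them back until calcium is bound. Mammals have several genes for each of these parts. Mouse ventricles use Myl2 and Myl3 as light chains and atria use Myl7 and Myl4, while Myh6, Actc1 and Tnni3 serve the whole adult heart. Myh7, Acta1 and Tnni1 are the forms of the fetal mouse ventricle or of skeletal muscle. A return of Myh7 and Acta1 in a stressed adult ventricle is a textbook sign of the fetal gene program.

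The adult isoforms gave weaker mean signals after cold storage, by 1.34-fold to 1.44-fold, the atrial light chains differed more within each group than between groups, and none of Myh7, Acta1 and Tnni1 had a higher mean. By limma, Actc1, Myl2, Myl3 and Tnni3 passed an unadjusted p of 0.05 as lower, which is 4 of 10 members against 7.35% of all probe sets tested. No member passed as higher, against 7.64% of all probe sets. These shares are over all probe sets, many of which hold tied values. A fit on the 10074 probe sets without ties, 9 members among them, gave an unadjusted p under 0.05 by limma for 3160 in either direction. In that fit 5 of the 9 members passed as lower. Its 3160 of 10074 probe sets in either direction stand against 3265 of all 21789, which is a smaller share. As only Tnni1 of the members held ties, 7.35% is a low share to set beside the members. The share passing as lower in the fit without ties was not counted. After the Benjamini-Hochberg adjustment over all 21789 probe sets, no member passed 0.05, and neither did any other probe set (0%), whereas 3265 had an unadjusted p under 0.05. The methods' t-test gave 2 at an adjusted p of 0.05 and 2014 unadjusted. No member differed by 2-fold at an unadjusted p under 0.05, against 1.5% of all probe sets, a share at which none of 10 is not a result about the members. In 5 members, Actc1, Myl2, Myl3, Tnni3 and Myh7, all 3 I/R grafts lay below both non-I/R grafts, against 16.2% of all probe sets. The median log2 fold change was -0.44 over the members and -0.0079 over all probe sets. The count of 4 fell to 1 without graft 2554, when only Actc1 passed, to 1 without both 2554 and 2555, the grafts with most Myl7, and to 2 with the methods' t-test. In bulk tissue, fewer heart muscle cells and less RNA in each of them cannot be told apart.

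**Figure D1:**
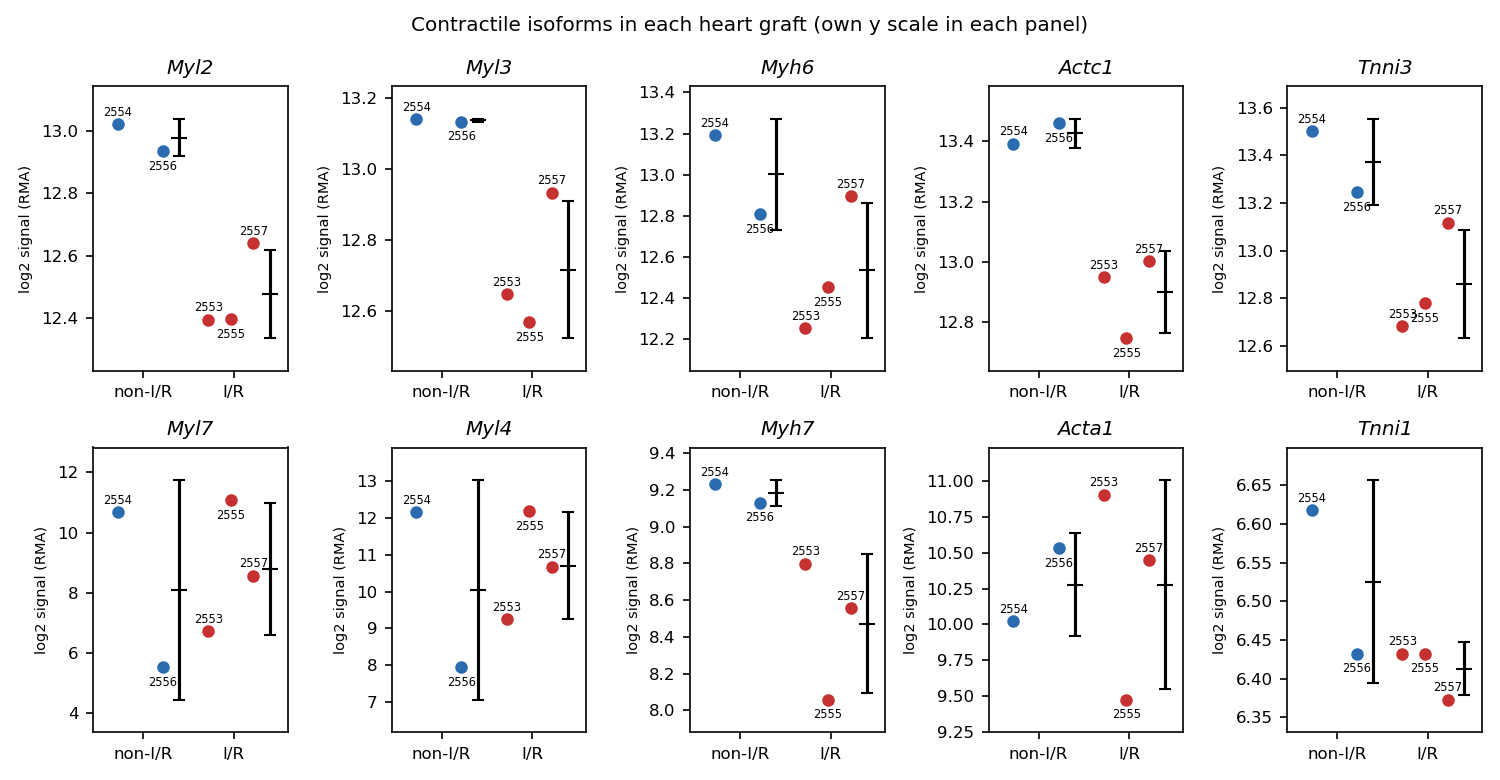
Log2 RMA signal (y axis, own scale in each panel) of the 10 contractile isoforms in the non-I/R (blue, n = 2) and I/R grafts (red, n = 3), with the graft number at each point and the mean ± SD in black. In the upper row the I/R points of Myl2, Myl3, Actc1 and Tnni3 lie below both non-I/R points, while in the lower row Myl7 runs from 5.52 to 10.67 in the non-I/R grafts alone.

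**Figure D2:**
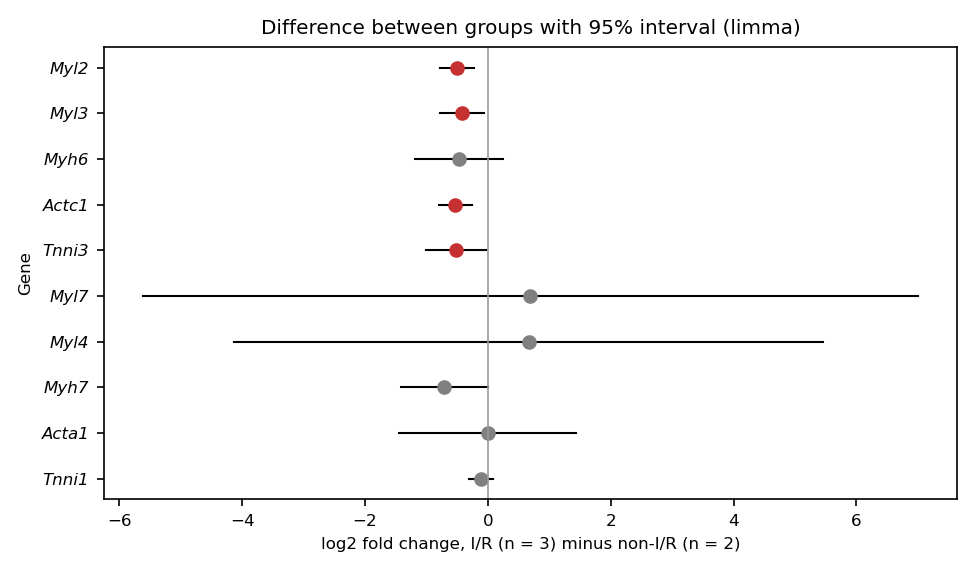
Log2 fold change, I/R minus non-I/R (x axis), of each isoform (y axis), with the 95% interval from limma as a line. Red points had an unadjusted p under 0.05, and the intervals of Myl7 (-5.62 to 7.01) and Myl4 (-4.13 to 5.46) are the widest of the 10.

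Among the ventricular light chains, Myl2, the regulatory chain on which the myosin kinases act, had log2 signals of 13.02 and 12.94 in non-I/R grafts 2554 and 2556, and of 12.39, 12.40 and 12.64 in I/R grafts 2553, 2555 and 2557. Every I/R graft was below both non-I/R grafts, and the gap between the groups was wider than the spread in either of them. The log2 fold change was -0.50 (SE 0.099), with an unadjusted p of 0.00795 and an adjusted p of 0.282 by limma. Myl3, the essential light chain of ventricle and slow skeletal muscle, had 13.14 and 13.13 in the non-I/R grafts and 12.65, 12.57 and 12.93 in the I/R grafts in the same order. The non-I/R grafts were nearly level, and graft 2557 came closest to them. Its log2 fold change was -0.42 (SE 0.128; limma, unadjusted p = 0.0326 and adjusted p = 0.306). Without graft 2554, the unadjusted limma p was 0.0593 for Myl2 and 0.135 for Myl3, with log2 fold changes of -0.46 and -0.42. Myl3 also missed 0.05 without graft 2553, 2555 or 2556 (unadjusted p from 0.0768 to 0.132).

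The atrial light chains showed another pattern. Myl7, the regulatory light chain of atrial myosin, had 10.67 in non-I/R graft 2554 and 5.52 in non-I/R graft 2556. In the I/R grafts it had 6.72, 11.08 and 8.56 in 2553, 2555 and 2557. The highest and the lowest graft thus belonged to different groups, and the groups overlapped over most of their range. The pair of non-I/R grafts differed by 5.15 log2 units and the I/R grafts by up to 4.36. The files used here hold no detection calls, and Myl7 was below the array median of 6.59 in graft 2556 and close to that of 6.58 in graft 2553, so no exact fold is given. Myl4, the essential light chain of atrium and fetal heart, had 12.15 and 7.94 in non-I/R grafts 2554 and 2556, and 9.26, 12.19 and 10.68 in I/R grafts 2553, 2555 and 2557. Its order over the grafts, 2556, 2553, 2557, 2554 and 2555 from low to high, was the order of Myl7, and the non-I/R grafts differed by 4.21 log2 units.

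Between groups, the log2 fold changes were 0.69 for Myl7 (SE 2.23; limma, unadjusted p = 0.772) and 0.66 for Myl4 (SE 1.69; limma, unadjusted p = 0.716). The 95% intervals, -5.62 to 7.01 and -4.13 to 5.46, leave large differences in either direction possible. A single graft set the sign: without I/R graft 2555 the values were -0.45 and -0.076, and without non-I/R graft 2556 they were -1.88 and -1.44. Ranked over all 21789 probe sets, the gap between the non-I/R grafts was widest for Myl7 (5.15 on the log2 scale) and next widest for Myl4 (4.21). The uncharacterised gene BC023105 followed with 3.11. Among the I/R grafts, Myl7 had the rank 2 with a range of 4.36, after the ribonuclease gene Rnase2a with 4.49, and Myl4 had the rank 5 with 2.93. The ventricular partners lay far down this order, since the non-I/R gap was 0.085 for Myl2 and 0.0063 for Myl3.

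**Figure D3:**
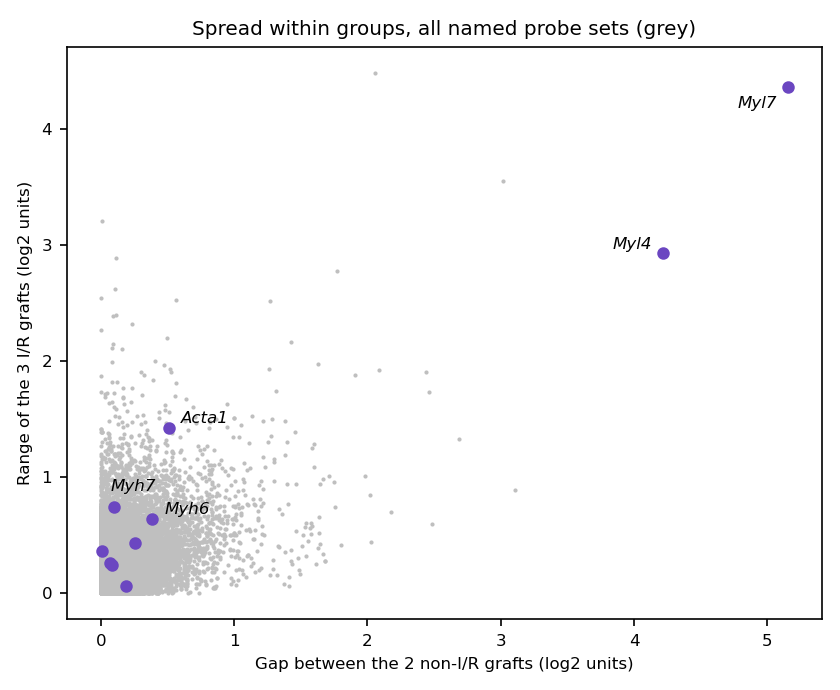
Gap between the pair of non-I/R grafts (x axis) and range of the 3 I/R grafts (y axis), both in log2 units, for every probe set with a single gene symbol (grey) and the 10 contractile isoforms (purple, with 5 of them named). Myl7 and Myl4 stand at 5.15 and 4.21 on the x axis, apart from all other probe sets, and the other isoforms are within the grey cloud.

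Markers of atrial muscle outside the 10 isoforms moved with graft 2554 and in part with graft 2555. Of 10 such genes in a list, 9 were measured, and none passed an unadjusted p of 0.05 in either direction between the groups by limma. Their mean deviation from the mean of the 5 grafts was 0.81 in graft 2554 and -0.36 in graft 2556 of the non-I/R group, and -0.36, 0.091 and -0.18 in the I/R grafts 2553, 2555 and 2557. Mybphl, a myosin binding protein found in atria, had log2 signals of 8.57 and 6.11 in the non-I/R grafts 2554 and 2556, and of 6.08, 7.81 and 6.66 in the I/R grafts 2553, 2555 and 2557. Sarcolipin, Sln, which restrains the calcium pump of atrial muscle, had 6.91 and 5.15 against 6.29 in graft 2555 and 5.55 and 5.75 in grafts 2553 and 2557. For Mybphl, Sln and Dkk3, grafts 2554 and 2555 were the highest, as for Myl7 and Myl4. Dkk3 had 8.32 and 7.19 in these grafts and between 6.14 and 6.80 in the others.

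Other genes of that list did not show the pattern of the light chains. Bmp10, a growth factor of the right atrium, was high in graft 2554 alone, at 7.29 against 4.79 in graft 2555 and 4.80 to 5.38 in the other grafts. Stard10 likewise had 10.57 in graft 2554 and 9.18 to 9.45 elsewhere. The atrial natriuretic peptide gene Nppa, which stressed ventricles express too, ranged only from 12.13 to 12.95. Kcna5, a potassium channel of atria, had 5.98 to 6.48, and the atrial transcription factors Nr2f1 and Nr2f2 had 5.61 to 5.66 and 7.48 to 7.77. The signals of Kcna5 and Nr2f1 held ties and were below the array median in every graft. They are not shown to be above background, so these probe sets can neither follow the light chains nor depart from them. Hcn4, the pacemaker channel, had 8.04 in graft 2554 and 6.94 to 7.31 in the other grafts. Of the other markers of the sinoatrial node, Tbx3 ran from 7.24 in graft 2553 to 7.94 in graft 2555. Tbx18 had 6.84 in graft 2555 and 6.93 in grafts 2554 and 2557. Vsnl1 had 5.47 to 5.73, Isl1 5.35 to 5.67 and Shox2 4.68 to 4.93. Vsnl1, Isl1 and Shox2 were below the array median in every graft, so their narrow ranges do not show level node tissue. Over the 6 node markers the mean deviation lay between -0.098 and 0.16. How much atrial tissue each sample held was not measured, and its part in the values of Myl7 and Myl4 was not tested.

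**Figure D4:**
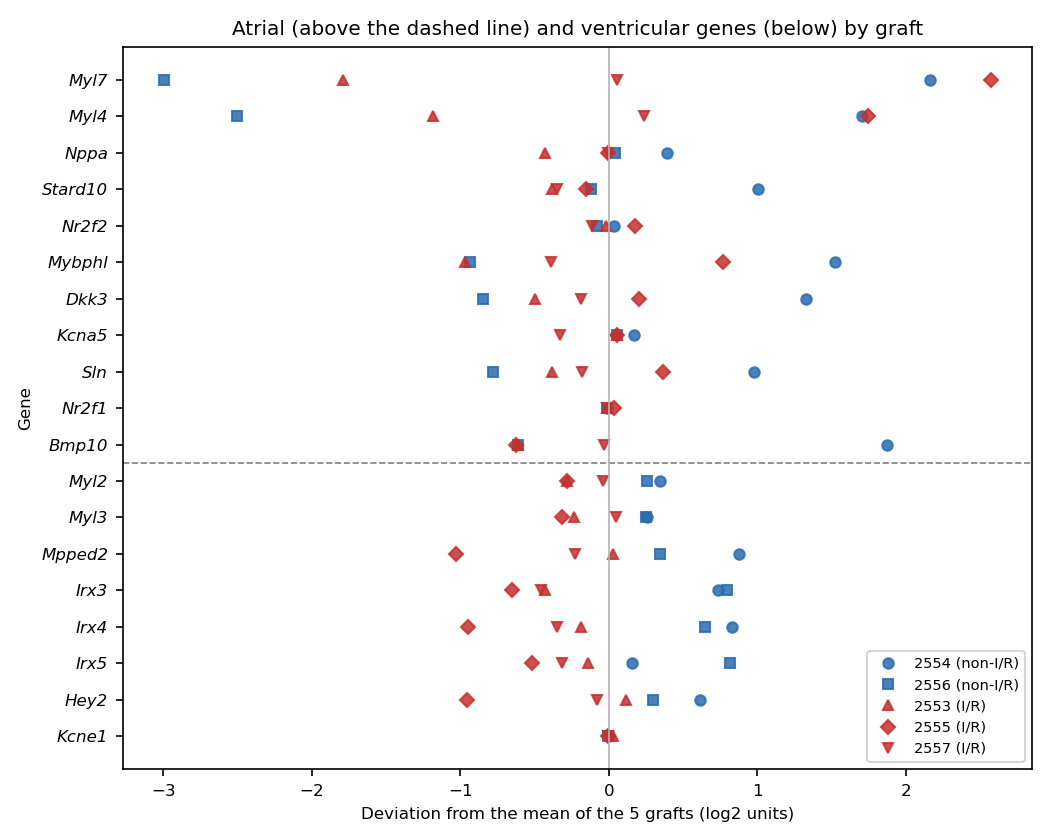
Deviation of each graft from the mean of the 5 grafts in log2 units (x axis) for atrial genes above the dashed line and ventricular genes below it (y axis), with a symbol for each graft, blue for non-I/R and red for I/R. Grafts 2554 and 2555 are at 2.16 and 2.57 for Myl7 and graft 2556 is at -2.99, whereas for Myl2 and Irx3 all red symbols are left of the blue ones.

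Ventricular markers outside the 10 isoforms followed the groups instead. Of 6 such genes, 5 had all I/R grafts below both non-I/R grafts, against 16.2% of all probe sets. By limma, 3 passed an unadjusted p of 0.05 as lower (adjusted p between 0.273 and 0.308), against 7.35% of all probe sets. These were the Iroquois transcription factors, with log2 fold changes of -1.28 (SE 0.084) for Irx3, -1.23 (SE 0.27) for Irx4, which marks ventricular muscle, and -0.81 (SE 0.25) for Irx5. Hey2, a repressor of atrial genes in the ventricle, had 7.74 and 7.42 in the non-I/R grafts and 7.24, 6.17 and 7.04 in I/R grafts 2553, 2555 and 2557, with a log2 fold change of -0.76 (SE 0.39; limma, unadjusted p = 0.127). Mpped2 had -1.02 (SE 0.40; limma, unadjusted p = 0.0677), and Kcne1 was between 6.38 and 6.41 in every graft. Graft 2555, high in Myl7, was the lowest of all in Hey2, Mpped2, Irx3, Irx4 and Irx5. Graft 2554, also high in Myl7, was the highest in Hey2, Irx4 and Mpped2, and graft 2556 was the highest in Irx3 and Irx5. The mean deviation of heart muscle markers outside the isoforms was also lowest in graft 2555, at -0.43.

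Both myosin heavy chain genes of the heart lie side by side in the genome, with Myh6 coding for the fast alpha chain of the adult mouse heart and Myh7 for the slow beta chain. Myh6 had log2 signals of 13.19 and 12.81 in non-I/R grafts 2554 and 2556, and of 12.25, 12.45 and 12.90 in I/R grafts 2553, 2555 and 2557. I/R graft 2557 lay above non-I/R graft 2556, so the groups overlapped. The log2 fold change was -0.47 (SE 0.252; limma, unadjusted p = 0.141), with a 95% interval from -1.18 to 0.25. Myh7 had 9.23 and 9.13 in the non-I/R grafts and 8.80, 8.06 and 8.56 in the I/R grafts in the same order. Here the groups were apart, and graft 2555 was lowest. Its log2 fold change was -0.71 (SE 0.252), with an unadjusted p of 0.0505 and an adjusted p of 0.335 by limma, and it passed 0.05 unadjusted in 10 of 18 other settings, always as lower. A higher Myh7 signal in the I/R grafts, as the fetal program would give, was thus not seen in any setting. The coding sequences of Myh6 and Myh7 are close to each other, so that probes may take up some RNA of the partner.

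Each of these myosin genes carries a microRNA in an intron, and the mature forms are shown because Mir208a, the gene of the one in Myh6, has a probe set of its own. The sequences are from RefSeq (GRCm38.p6, minus strand), with the seed, bases 2 to 8, in capitals. They lie at chr14:54949072-54949093 within Myh6 and at chr14:54975710-54975731 within Myh7.
miR-208a-3p: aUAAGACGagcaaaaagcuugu
miR-208b-3p: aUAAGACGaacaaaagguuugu
The seeds are the same, and 3 of the 22 bases differ elsewhere. The Mir208a probe set had 5.38 and 5.17 in non-I/R grafts 2554 and 2556, and 4.91, 4.82 and 4.92 in I/R grafts 2553, 2555 and 2557. All I/R grafts were below the non-I/R grafts, with a log2 fold change of -0.39 (SE 0.082; limma, unadjusted p = 0.00984 and adjusted p = 0.284). Its host gene Myh6 had -0.47. The Mir208a signals were below the median of their array in every graft and are not shown to be above background, which limits what this difference can be read as. These array signals may hold the precursor or host RNA and do not measure the mature microRNA. Mir499, which lies in Myh7b, had 4.13 to 4.52, and Mir208b was not analysed here.

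Of the sarcomeric actins, Actc1 is the form of the adult heart and Acta1 that of skeletal muscle and of the fetal heart. Actc1 had log2 signals of 13.39 and 13.46 in non-I/R grafts 2554 and 2556, and of 12.95, 12.75 and 13.00 in I/R grafts 2553, 2555 and 2557. The groups were well apart, and Actc1 had the smallest p of the 10 isoforms: the log2 fold change was -0.53 (SE 0.094; limma, unadjusted p = 0.00558 and adjusted p = 0.282). It was also the 1 member that stayed under 0.05 unadjusted in all 18 other settings, with values from -0.58 to -0.37. Acta1 had 10.02 and 10.53 in the non-I/R grafts and 10.90, 9.48 and 10.45 in the I/R grafts. Its I/R range of 1.43 on the log2 scale, a 2.69-fold difference, enclosed both non-I/R grafts, and the group means were both 10.28. The log2 fold change was -0.0016 (SE 0.51; limma, unadjusted p = 0.998), and the 95% interval from -1.44 to 1.44 takes in a 2-fold difference either way. Without I/R graft 2555 the value was 0.40, and without I/R graft 2553 it was -0.32.

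The actins and 2 of the light chains share a promoter element, and their stretches just before the annotated start are shown because these 4 genes behaved differently in the grafts. The letters searched on both strands in windows of 300 bases around each start were the CArG box, the site of serum response factor, the TEAD factor core site CATTCC, and the TATA box in its form TATAAA, with no overlap of matches in the members. In the 100 bases before the start, from RefSeq (GRCm38.p6), capitals mark CATTCC and the CArG box. Actc1 is at chr2:114052876-114052975 (minus strand), Acta1 at chr8:123894776-123894875 (minus strand), Myl3 at chr9:110763578-110763677 (plus strand) and Myl7 at chr11:5898783-5898882 (minus strand).
Actc1: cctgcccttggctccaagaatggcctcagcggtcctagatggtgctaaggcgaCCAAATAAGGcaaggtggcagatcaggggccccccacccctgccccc
Acta1: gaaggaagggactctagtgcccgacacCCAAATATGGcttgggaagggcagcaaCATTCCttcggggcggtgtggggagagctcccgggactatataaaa
Myl3: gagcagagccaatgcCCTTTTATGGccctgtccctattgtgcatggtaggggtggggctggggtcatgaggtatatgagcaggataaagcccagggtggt
Myl7: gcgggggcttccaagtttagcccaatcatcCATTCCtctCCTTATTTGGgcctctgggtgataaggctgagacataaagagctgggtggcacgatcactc
A CArG box was found for 4 of the 10 members and in 1.63% of all 32851 windows, and CATTCC for 5 members, Acta1, Myh6, Myh7, Myl3 and Myl7, and in 14.7% of all windows. The letters TATAAA were found for 4 members, Acta1, Actc1, Myh6 and Myl2, and in 13.6% of all windows. They began 7 bases before the annotated start in Acta1, and at base 2 after it in Myh6 and base 34 in Actc1. In Myl2 they lay on the opposite strand, 216 bases before the start. These matches are therefore not shown to be the TATA boxes of the genes, and the annotated starts were not checked. The CArG box began 47 bases before the annotated start in Actc1, 73 in Acta1, 85 in Myl3 and 61 in Myl7. Within this set, Actc1 and Myl3 were lower in every I/R graft, and Acta1 and Myl7 overlapped between the groups. Neither the CArG box nor CATTCC was found in the windows of Myl4, whose signals ran with those of Myl7, or in those of Myl2, Tnni3 and Tnni1. Srf, the gene of serum response factor, had a log2 fold change of 0.44 (SE 0.19; limma, unadjusted p = 0.0868), and its partner Myocd had -0.61 (SE 0.35; limma, unadjusted p = 0.155). Of the TEAD genes in the lists, Tead4 had 0.39 (SE 0.12; limma, unadjusted p = 0.0307) and Tead1 had 0.17 (SE 0.13; limma, unadjusted p = 0.273).

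Troponin I of the adult heart, Tnni3, had log2 signals of 13.50 and 13.25 in non-I/R grafts 2554 and 2556, and of 12.68, 12.78 and 13.12 in I/R grafts 2553, 2555 and 2557. The groups did not overlap, although graft 2557 was within 0.13 of graft 2556. The log2 fold change was -0.51 (SE 0.173; limma, unadjusted p = 0.0439 and adjusted p = 0.323). Without graft 2557 the unadjusted p was 0.0157, and without any other graft it was between 0.081 and 0.207. Tnni1, the form of fetal heart and slow skeletal muscle, had 6.62 and 6.43 in the non-I/R grafts and 6.43, 6.43 and 6.37 in the I/R grafts. It was the only member with tied values, which were equal in grafts 2553, 2555 and 2556, and its signals were close to the array medians of 6.58 to 6.65. With a log2 fold change of -0.11 (SE 0.068; limma, unadjusted p = 0.175) and a 95% interval from -0.30 to 0.079 on the log2 scale, no rise of Tnni1 was seen.

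The balance of each isoform pair was followed as the difference of 2 log2 signals within a graft, given relative to its mean over the 5 grafts. Since probe sets differ in brightness, only changes of this balance between grafts can be read. For Myl7 against Myl2 it was 1.82 and -3.25 in non-I/R grafts 2554 and 2556, and -1.51, 2.85 and 0.092 in I/R grafts 2553, 2555 and 2557. It ran over 6.11 log2 units, with its lowest value in the graft where Myl7 was below the array median, and that of Myl4 against Myl3 ran over 4.82, with the same order of grafts. The balance of Myh7 against Myh6 was far narrower, with 0.0044 and 0.29 in the non-I/R grafts and 0.51, -0.43 and -0.37 in the I/R grafts. For Acta1 against Actc1 it was -0.54 and -0.096 in the non-I/R grafts and 0.79, -0.44 and 0.28 in the I/R grafts. For Tnni1 against Tnni3 it was -0.27 and -0.21 against 0.36, 0.26 and -0.14, and here alone the groups did not overlap. Tnni1 was below the array median in every graft and equal in grafts 2553, 2555 and 2556, so this balance mainly reflects Tnni3. The differences I/R minus non-I/R were 1.20, 1.09, -0.24, 0.53 and 0.40 in this order. Exact permutation tests, two-sided, gave p = 0.6, 0.6, 0.6, 0.4 and 0.2, all 0.6 after adjustment over the 5 pairs, in a design whose smallest p is 0.1.

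**Figure D5:**
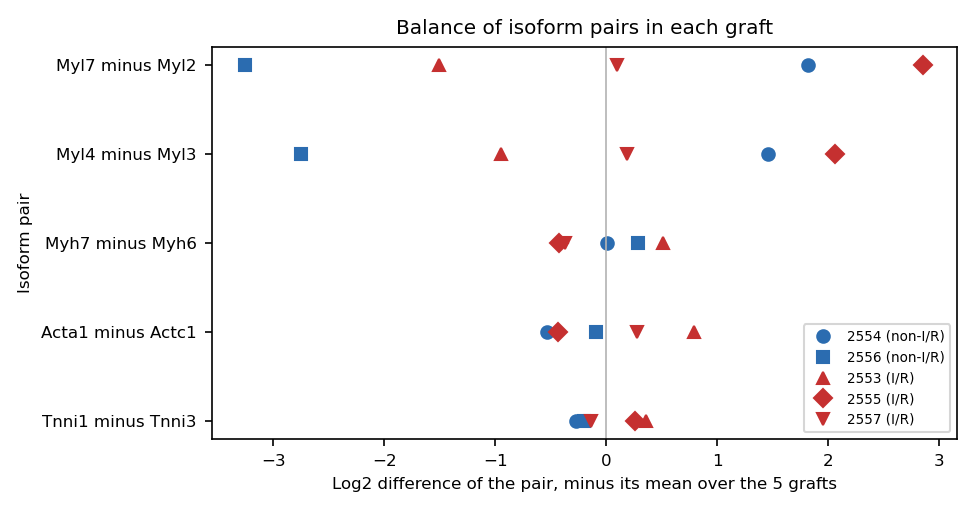
Log2 difference of the isoforms of a pair in each graft, relative to its mean over the 5 grafts (x axis), for 5 pairs (y axis), with a symbol for each graft, blue for non-I/R and red for I/R. The atrial against ventricular light chains range from -3.25 in graft 2556 to 2.85 in graft 2555, and the other pairs stay within 0.79 of 0.

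Over the 5 grafts the members fell into sets by Pearson correlation, given as a description of 5 samples that also differ by group. Myl7 and Myl4 had r = 0.99 with each other, while Myl7 had -0.088 with Myl2 and Myl4 had -0.23 with Myl3. Myl2, Myl3, Actc1 and Tnni3 had r between 0.84 and 0.97 with one another. Myh6 ran closest to Tnni3 (r = 0.97) and Myh7 to Actc1 (r = 0.92). Acta1 had no member with r over 0.51, and its lowest value was -0.85, with Myl7.

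The probe sets most like a member were sought among the 1922 others whose signal ranged over at least 1 log2 unit. The highest of 1922 correlations over 5 grafts are high by selection, so the r values only describe these grafts. Beside Myl4, the probe sets nearest to Myl7 were Fgf12 (r = 0.97), an intracellular factor that binds sodium channels, Hamp (r = 0.95), which codes for the iron hormone hepcidin, Tmem163 (r = 0.95) and Snord118 (r = 0.93). Fgf12 was below the array median in every graft but 2555. Hamp had 9.03 and 6.02 in non-I/R grafts 2554 and 2556, and 5.69, 9.25 and 6.86 in I/R grafts 2553, 2555 and 2557. Its non-I/R gap of 3.02 was the fourth widest of all probe sets. Nearest to Myl4 were Myl7, Fgf12, Tmem163, Sln and Hamp (r from 0.92 to 0.99). Nearest to Myh7 were triadin, Trdn, which anchors the calcium release channel, and Zfp971, Yipf7, Ptpn3 and Fkbp3, all with r of at least 0.998. Nearest to Acta1 were Lsm8, the growth factor Fgf16, Zfp617, Klhl4 and Cenpq (r from 0.93 to 0.98). Fgf16 had 9.26 and 9.84 in the non-I/R grafts and 10.01, 8.94 and 9.84 in the I/R grafts.

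Other genes of the same protein families were counted from lists, with the brightest probe set taken for a gene. Over all probe sets, 7.35% passed 0.05 unadjusted as lower by limma and 7.64% as higher. Of 11 other myosin heavy chains, 1 passed 0.05 unadjusted by limma, as higher: the non-muscle chain Myh9 with 0.94 (SE 0.21; limma, adjusted p = 0.284). The skeletal chains Myh1, Myh2 and Myh4 had signals between 5.11 and 5.63 in all grafts. Of 8 other light chains, 1 was higher, the non-muscle and smooth muscle chain Myl6 with 0.39 (SE 0.085; limma, adjusted p = 0.284). Myl1, a light chain of fast skeletal muscle, had 9.06 and 7.46 in the non-I/R grafts and 8.02, 6.99 and 8.08 in the I/R grafts. None of 3 other actins passed, and smooth muscle actin Acta2 had 0.75 (SE 0.26; limma, unadjusted p = 0.0501). Of 6 other troponins, cardiac troponin T, Tnnt2, was lower with -0.54 (SE 0.15; limma, adjusted p = 0.29), and cardiac troponin C, Tnnc1, had -0.38 (SE 0.15; limma, unadjusted p = 0.0611). Of the 4 tropomyosins, which line the actin filament, 3 were higher: Tpm4 with 0.69 (SE 0.11), Tpm2 with 0.44 (SE 0.090) and Tpm3 with 0.38 (SE 0.037). The heart's own Tpm1 had -0.28 (SE 0.11; limma, unadjusted p = 0.0707).

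Of 14 partners that build or hold the filaments, all had lower means, with a median log2 fold change of -0.81. By limma, 7 passed 0.05 unadjusted as lower (adjusted p between 0.282 and 0.319), against 7.35% of all probe sets. They were the cardiac myosin light chain kinase Mylk3 with -2.21 (SE 0.30), the formin Fhod3 with -1.09 (SE 0.27), the myosin chaperone Unc45b with -0.90 (SE 0.24), Myom1 of the M band with -0.85 (SE 0.26), Mybpc3 with -0.79 (SE 0.090), Ttn with -0.64 (SE 0.099) and Actn2 with -0.48 (SE 0.16). For Mylk3, whose substrate is Myl2, the log2 signals were 10.74 and 10.23 in the non-I/R grafts and 8.70, 7.98 and 8.15 in the I/R grafts. Among the 8 other genes of the fetal program none passed in either direction. The natriuretic peptide gene Nppb had 11.12 and 12.76 in the non-I/R grafts and 12.64, 12.02 and 12.96 in the I/R grafts, and Ankrd1 had 13.14 and 13.31 against 12.91, 13.09 and 13.25.

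Of 15 genes that act on the choice of myosin, 3 passed as lower and 1 as higher at an unadjusted p under 0.05 by limma. Thra, the main thyroid hormone receptor of heart muscle, by which the hormone raises Myh6 and lowers Myh7, had 10.51 and 10.32 in the non-I/R grafts and 9.88, 9.65 and 9.71 in the I/R grafts, which is a difference of -0.67 (SE 0.10; limma, adjusted p = 0.282). Mef2c had -0.42 (SE 0.15; limma, adjusted p = 0.327), Dio3, which breaks down thyroid hormone, had -0.27 (SE 0.091; limma, adjusted p = 0.326) and Tead4 was the higher one. The Dio3 signals, 4.98 to 5.35, were below the median of every array and are not shown to be above background. Med13, a target of miR-208a, had 0.0056 (SE 0.052). Tbx5, which sets atrial and left ventricular identity, had -1.19 (SE 0.42; limma, unadjusted p = 0.0509).

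Other cell types were followed by their markers. Of 10 heart muscle markers outside the isoforms, all had lower means, with a median log2 fold change of -0.51. By limma, 8 passed 0.05 unadjusted as lower, against 7.35% of all probe sets. By p, these were led by Mybpc3, the calcium pump regulator Pln with -1.46 (SE 0.24), the calcium release channel Ryr2 with -0.82 (SE 0.14), the calcium pump Atp2a2 with -0.58 (SE 0.097), Tnnt2 and the creatine kinase Ckm with -0.43 (SE 0.12). Their mean deviation was 0.32 to 0.39 in the non-I/R grafts and -0.43 to -0.083 in the I/R grafts. Of 7 neutrophil markers, all had higher means and 4 passed as higher, against 7.64% of all probe sets. They were Mmp9 with 1.45, Csf3r with 1.36, Cxcr2 with 1.15 and S100a8 with 0.86 (limma, adjusted p from 0.29 to 0.319). The mean deviation of the 7 markers was -0.85 to -0.41 in the non-I/R grafts and 0.028 to 0.87 in the I/R grafts. Across the groups the heart muscle markers moved in the direction of the adult isoforms and the neutrophil markers in the opposite direction. The part of either cell type in the lower signals was not tested. Of 14 skeletal muscle markers, 1 passed as lower, Atp2a1 with -0.14 (SE 0.028), and the mean deviation stayed between -0.094 and 0.098, with its lowest value in graft 2553, where Acta1 was highest. Markers of smooth muscle (5), endothelium (6), macrophages (7), fat (4) and epicardium (5) had none past 0.05 in either direction by limma, and of 7 fibroblast markers Dcn was lower with -0.72 (SE 0.23). Smooth muscle markers had mean deviations of -0.43 to -0.078 in the non-I/R grafts and -0.0091 to 0.38 in the I/R grafts. With the mean deviation of the non-member atrial markers as a covariate, Actc1 and Myl2 had log2 fold changes of -0.57 and -0.48, Myl3 and Tnni3 had -0.43 and -0.44 and no longer passed, and Myl4 had 2.14 with an unadjusted p of 0.0302 by limma (adjusted p = 0.45). In the same fit Myl7 had 2.58, against 0.69 without the covariate, with an unadjusted p of 0.0776 by limma. The covariate was 0.81 in graft 2554 and -0.36 to 0.091 in the other grafts, so this fit rests largely on that graft. With graft 2554 left out and no covariate, Myl4 had 2.77 and Myl7 had 3.27. Whether the covariate takes out the atrial content of a graft was not tested.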

How the data were processed

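Gene expression was measured in 5 heart grafts, 3 I/R and 2 non-I/R, with 1 array each. For 35556 probe sets, log2 values were deposited, which the authors computed by RMA with Partek software (versions and genome build not given in the sources used here). Names came from the annotation of the platform, and older symbols were replaced by way of their gene IDs (RefSeq, GRCm38.p6). A single symbol was given for 21789, several for 1621, and 12146 are not listed. Values were tied between arrays in 11715 probe sets, and no further normalization or filter was applied. Groups were compared with limma 3.58.1 in R 4.3.3 (lmFit, eBayes, prior df 0.824), fitted on all 21789 probe sets and adjusted by Benjamini-Hochberg. The methods' ANOVA of 2 groups was run as their t-test. Isoform pairs were compared by exact permutation tests. The limma fit was tested on simulated data. Plots used matplotlib 3.10.9 in Python 3.11.15. The number of arrays and the scatter between grafts limit the precision, and probe intensities and detection calls were not used.

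The members, lists, tests and alternatives were chosen with earlier results of these data known. Named genes are the members, the 5 probe sets most like each member with a range of at least 1 log2 unit, all measured atrial, ventricular and node markers, and of each list up to 6 genes by p among those with an unadjusted p under 0.05, with others where a list needed them, chosen after their values were seen.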

Additional observations from a re-analysis of the deposited data

How the results depend on the processing

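The alternatives were other settings of eBayes, the methods' t-test, array weights, other normalizations and filters, a covariate, and leaving out each graft or both 2554 and 2555. No member passed an adjusted p of 0.05 in any of them, and the median log2 fold change of the members stayed below 0, from -0.59 to -0.33 among the fits with 1 graft left out, with -0.29 without 2554 and 2555 and -0.31 with array weights. The count of members lower at an unadjusted p under 0.05 was 2 with the methods' t-test and with the atrial marker covariate (where 1 member, Myl4, was higher), 1 without 2554 and 2555, and 1 to 5 with 1 graft left out. With quantile normalization the member median was -0.34, against -0.44 with the deposited values. Actc1, Tnni3, Myl2, Myl3 and Myh6 then had -0.37, -0.35, -0.40, -0.32 and -0.37. These were smaller differences than the -0.53, -0.51, -0.50, -0.42 and -0.47 of the deposited values. Myh7 had -0.74 against -0.71. The value of Acta1 changed sign with array weights (0.083) and without 2554 and 2555 (0.14), and ranged from -0.32 to 0.40 with 1 graft left out. With 1 graft left out, Myl7 ranged from -1.88 to 3.27 and Myl4 from -1.44 to 2.77, and the pairs Myl7 minus Myl2 and Myl4 minus Myl3 from -1.34 to 3.73 and from -1.02 to 3.19. The cause of these shifts was not tested. Actc1, Myl2, Myl3, Tnni3, Myh6 and Myh7 were lower in all 18 alternatives. The filter on dim probe sets and that on tied values removed Tnni1. Where 1 non-I/R graft was left, it was assumed to vary like the I/R grafts. No paired analysis was possible because the labels give no replicate numbers. Outliers were not looked for in groups of 3 and 2.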
